A study of Mus musculus with 45 samples.

Results

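The 5 lines YEJH-FP1 to YEJH-FP5 were compared with each other to ask which genes differ between tumour cell lines of one origin and one graft site. Members were chosen by the line names in the labels, which gave 15 of the 45 libraries of the series and 5 of its 15 lines. Each line was sequenced as 3 libraries. All 5 lines are *PyMT*+ mouse mammary tumour lines cultured from tumours that grew in the mammary fat pad, and all descend from the parental line YEJH. They share the MMTV-*PyMT* transgene, in which a viral promoter active in mammary epithelium drives the polyoma middle T oncogene, and no treatment was given. Cells were cultured for 24 h before lysis. The labels do not say that the 3 libraries of a line came from separate cultures, and they were treated as technical repeats, so that p-values measure the spread between libraries and say nothing of how a second tumour of the same kind would differ. The study describes the lines as independent lines, each from a mouse of its own, and the sources used here do not say whether a line is 1 clone.

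Middle T antigen is a membrane-bound viral protein without enzyme activity of its own, which recruits Src family kinases, phosphatidylinositol 3-kinase and Shc and so mimics a constantly active growth factor receptor. Mammary tumours driven by it begin as luminal epithelium, and cell lines from such tumours can lose luminal features and take on basal or mesenchymal ones in culture. A tumour that regrows after transplantation is seeded by many cells, of which some may contribute more descendants than others, and a line drawn from it samples those descendants.

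The libraries held 12313183 to 16943900 reads on genes, and no pair of the 15 libraries held identical counts. All 8 mammary epithelial markers were expressed, with a summed level of 5255 to 7797 CPM (reads scaled to a fixed library total) per library. The mesenchymal genes *Vim* and *Cdh2* were expressed too. Their line means were 6949 to 10630 and 1576 to 2148 normalised counts (reads scaled to the mean library size). Summed levels per library were 4.17 to 7.77 CPM over 15 leukocyte markers, 3.32 to 6.32 CPM over 10 fibroblast markers, and at most 0.705 CPM over 9 endothelial and 0.5655 CPM over 7 adipocyte markers. Over 7 skeletal muscle markers the sum was 7.54 to 20.5 CPM, with *Des*, *Myog* and *Myh4* at 0 in all 15 libraries and *Acta1* higher in YEJH-FP5 (log2 difference 0.70 ± 0.11 SE, standard error, adjusted p = 0.00337 by edgeR), and over 7 lung epithelial markers it was 15.2 to 40.2 CPM, with *Sftpa1*, *Sftpb* and *Sftpc* at 0. *Cd3e*, *Itgam*, *Thy1*, *Lum* and *Adipoq* were at 0 in all 15 libraries. Other markers were not at 0. Most of the lung sum was *Foxj1*, with line means of 19.7 to 31.3 CPM, and most of the fibroblast sum was *Pdgfra*, at 3.34 to 4.0 CPM. The leukocyte sum was mostly *S100a8* (1.46 to 3.43 CPM), *Csf1r* (1.39 to 1.84 CPM) and *Cd68* (1.02 to 1.63 CPM). The library names carry 2 prefixes, taken as 2 library runs and called A and B here, and run was a covariate in every test. The library of repeat number 1 had the lowest score of its line on the leading principal component in all 5 lines, and that of YEJH-FP1 stood farthest out, at -29.25 against -12.8 to 14.45 for the other 14. Over all genes tested, the median SD of the 5 fitted line values was 0.07 on the log2 scale. The median SD of single libraries, after line and run were fitted, was 0.13. A line value rests on 3 libraries, so these SDs are not like measures.

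The 5 lines were very alike. Of 13429 genes tested, 160 (1.19%) differed among them at an adjusted p under 0.05 (edgeR's quasi-likelihood F test over the 4 line contrasts, Benjamini-Hochberg adjustment over all genes), and 64 (0.477%) differed at least 2-fold between the highest and the lowest line. The median range of the 160 genes was 0.84 on the log2 scale, against 0.17 over all genes tested. The count fell to 103 without library 1 of YEJH-FP5 and to 106 without library 2 of YEJH-FP2, and rose to 225 without library 1 of YEJH-FP1. Without the 5 libraries of repeat number 1 it was 174, of which 105 were among the 160. With repeat number added to the model it was 355, which held all 160. The model used here leaves shared effects of repeat number in the spread between libraries. The line farthest from the median of the 5 was YEJH-FP5 for 80 of the 160 genes, YEJH-FP2 for 36, YEJH-FP1 for 20, YEJH-FP4 for 13 and YEJH-FP3 for 11. For 70 genes (0.521% of those tested) the difference belonged to 1 line, in that this line lay farther from its nearest neighbour than the other 4 lay from each other and also differed from them in its own test. These 70 were divided as 43 in YEJH-FP5, 14 in YEJH-FP2, 5 in YEJH-FP1 and 4 each in YEJH-FP3 and YEJH-FP4.

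Each line was then tested against the mean of the other 4, with the same model. Of all genes tested, 54 (0.402%) were higher and 129 (0.961%) lower in YEJH-FP5, 1.36% in either direction. In YEJH-FP2, 30 (0.223%) were higher and 15 (0.112%) lower, 0.335% in all. The counts were 13 higher (0.0968%) and 7 lower (0.0521%) in YEJH-FP1, 3 higher (0.0223%) and 7 lower (0.0521%) in YEJH-FP3 (0.0745% in all), and 9 higher (0.067%) and 0 lower in YEJH-FP4 by edgeR. For genes lower in YEJH-FP4 304 had an unadjusted p under 0.05, and DESeq2 called 3 and limma 0. With a difference of at least 2-fold, 33 genes (0.246%) were called in YEJH-FP5, of which 11 were higher (0.0819%), 15 (0.112%) in YEJH-FP2, 8 (0.0596%) in YEJH-FP1, 5 in YEJH-FP4, all higher (0.0372%), and 1 in YEJH-FP3 (0.00745%). The 5 of YEJH-FP4 fell to 2 without any 1 of its own libraries and to 3 without library 2 of YEJH-FP1, any library of YEJH-FP2, library 1 of YEJH-FP3 or library 1 or 2 of YEJH-FP5, and the 1 of YEJH-FP3 became 2 without library 3 of YEJH-FP5. YEJH-FP5 was thus the line with the most differences, and lower genes outnumbered higher ones in YEJH-FP5 and in YEJH-FP3.

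**Figure D1:**
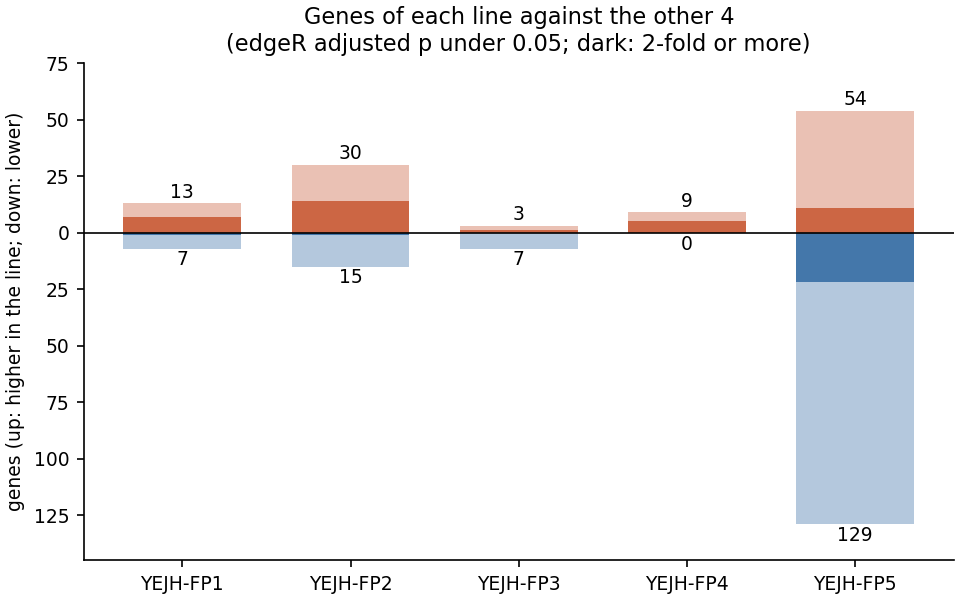
Number of genes (vertical axis) higher (above 0) or lower (below 0) in each fat-pad line against the mean of the other 4, at an adjusted p under 0.05, with those at least 2-fold apart in the dark part of each bar. YEJH-FP5 has 54 genes above and 129 below, YEJH-FP2 has 30 and 15, and the other 3 lines have at most 13 in either direction.

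The same test among the 5 lung micrometastasis lines of YEJH called 2808 of 13599 genes (20.6%), of which 998 (7.34%) were at least 2-fold apart. Over 11155 genes expressed in both sets, any pair of fat-pad lines had between 5 and 28 genes at least 2-fold apart, and any pair of lung lines between 107 and 311, so that the groups did not overlap. The 4 fat-pad pairs with the most such genes all held YEJH-FP5 (17 to 28 genes). The mean over a line's 4 pairs was 13.9 ± 5.17 genes for fat-pad lines (SD, n = 5 lines). For lung lines it was 207 ± 36.15 genes (SD, n = 5 lines). All pairs were within a site and share lines, so that a divergent line raises every mean of its group. The means of a group are therefore not independent, and shuffling these fixed means between sites gives no valid test. No p-value is given for this difference, and the values describe these 10 lines only.

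**Figure D2:**
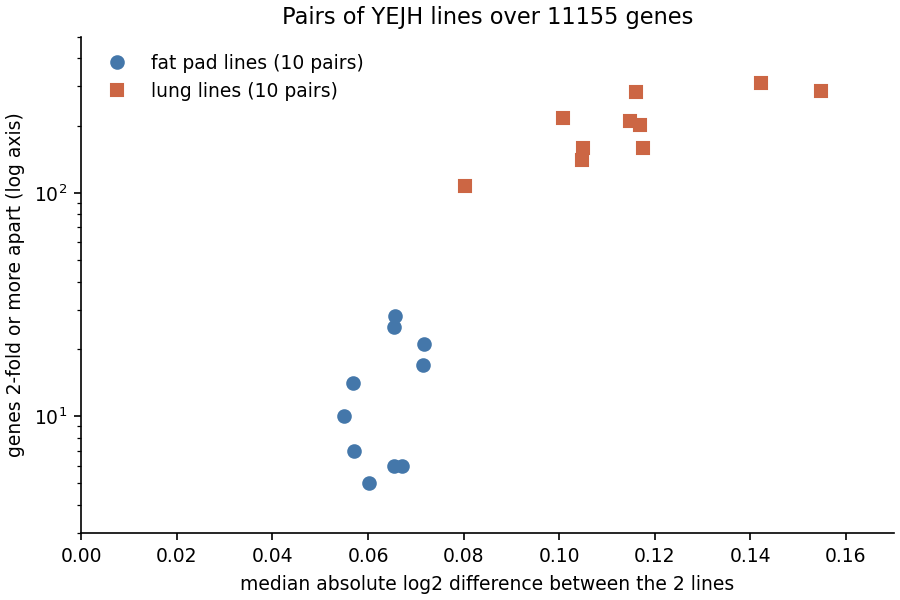
Each point is a pair of YEJH lines, with the median absolute log2 difference over 11155 genes on the horizontal axis and the number of genes at least 2-fold apart on the vertical log axis. The 10 fat-pad pairs (circles) lie at 5 to 28 genes and the 10 lung pairs (squares) at 107 to 311.

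YEJH-FP1 was marked by the relaxin receptor gene *Rxfp1* and by chemokine genes that lie near each other. *Rxfp1* (ENSMUSG00000034009) lies on chromosome 3 from 79548868 to 79645280 in GRCm39 and encodes a G protein-coupled receptor for the hormone relaxin. Its normalised counts in the 3 libraries of YEJH-FP1 were 56.1, 82.5 and 74.2. In the other 12 libraries it lay between 0 and 2.203, with a median of 0.4985. Groups that do not overlap were a condition for naming a gene by its line. The log2 difference was 6.85 ± 0.31 (SE, adjusted p = 1.28e-07 by edgeR's quasi-likelihood test for the line against the other 4). With all 45 libraries on a common scale, *Rxfp1* averaged 0 in each of the 5 YEJH lung lines and of the 4 YEJG lines, and 0.283 normalised counts in the parental line YEJH.

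*Cxcl3*, which encodes a neutrophil-attracting chemokine that signals through CXCR2, was present at 47.7, 43.3 and 42.9 normalised counts in YEJH-FP1. The other 12 libraries held 2.24 to 9.4, with a median of 5.88, below every library of YEJH-FP1. On the log2 scale the difference was 2.95 ± 0.20 (SE, adjusted p = 1.93e-06, edgeR). *Ppbp*, whose product is the precursor of several platelet chemokines, lies near *Cxcl3* and stood at 140, 185 and 170 normalised counts in YEJH-FP1, against 78.2 to 136 in the other 12 libraries. Its log2 difference was 0.71 ± 0.10 (SE, adjusted p = 0.00415, edgeR). Its call among the 5 lines was lost in 4 of 26 other settings. These were run B alone, no run covariate and without library 2 or 3 of YEJH-FP1.

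*Cxcl5*, *Ppbp* and *Cxcl3* lie within chromosome 5 from 90907186 to 90937459 (GRCm39), and all differed among the 5 lines, but not in the same one. *Cxcl5*, a further CXCR2 ligand, averaged 1906 ± 209.9 normalised counts in YEJH-FP5, followed by YEJH-FP1 at 1703 ± 209, YEJH-FP2 at 1575 ± 109, YEJH-FP4 at 1306 ± 64.4 and YEJH-FP3 at 1103 ± 129.6 (SD, n = 3). It was lower in YEJH-FP3 (log2 difference -0.55 ± 0.08 SE, adjusted p = 0.015, edgeR) and higher in YEJH-FP5 (0.43 ± 0.08 SE, adjusted p = 0.00914, edgeR). *Cxcl1* and *Cxcl2*, of the same cluster and the same receptor, did not pass among the 5 lines (adjusted p = 0.929 and 0.744, edgeR). *Cxcl1* ranged from 878 ± 121 normalised counts in YEJH-FP3 to 1210 ± 177 in YEJH-FP5, and *Cxcl2* from 53.3 ± 12.7 to 89.25 ± 30.2 in the same lines (SD, n = 3).

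The stretches of 150 bases just before the RefSeq start of 4 of these genes are shown so that *Cxcl3*, which stood apart in YEJH-FP1, can be set beside its neighbours (RefSeq, GRCm38.p6, forward strand, 5′ to 3′). Capitals mark exact matches, on either strand, to a 10-base NF-kappaB motif, which is the longer capital run in the stretch of *Cxcl3*, or to TATAAA. Of 32851 RefSeq promoter windows of this length, 0.0609% hold the former and 7.57% the latter.
Cxcl3, chr5:90785951-90786100: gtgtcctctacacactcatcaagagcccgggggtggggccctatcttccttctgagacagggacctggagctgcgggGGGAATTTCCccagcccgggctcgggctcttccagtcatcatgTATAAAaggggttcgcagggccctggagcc
Ppbp, chr5:90768368-90768517: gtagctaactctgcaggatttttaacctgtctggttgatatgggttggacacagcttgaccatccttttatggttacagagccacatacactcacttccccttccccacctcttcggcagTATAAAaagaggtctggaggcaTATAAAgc
Cxcl1, chr5:90891095-90891244: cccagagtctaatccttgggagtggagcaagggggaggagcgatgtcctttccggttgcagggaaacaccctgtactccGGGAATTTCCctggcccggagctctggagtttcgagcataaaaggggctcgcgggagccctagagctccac
Cxcl2, chr5:90903749-90903898: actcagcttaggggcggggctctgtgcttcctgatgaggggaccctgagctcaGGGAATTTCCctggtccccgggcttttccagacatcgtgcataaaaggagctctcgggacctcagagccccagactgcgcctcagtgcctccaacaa

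The NF-kappaB letters stand in the windows of *Cxcl3*, *Cxcl1* and *Cxcl2* and not in that of *Ppbp*. Of the 3 genes with these letters 1 was called in YEJH-FP1, and *Ppbp*, without them, was called there too. A match is a description of the letters and says nothing of binding. Of the 160 genes that differed, 103 had an entry in this promoter table.

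On the lower side, YEJH-FP1 held *Acad9*, which encodes an assembly factor of mitochondrial complex I, at 623, 619 and 672 normalised counts against 728 to 826 in the other 12 libraries. The difference was small, -0.29 ± 0.04 on the log2 scale (SE, adjusted p = 0.00928, edgeR), and the call among lines was lost in 8 of 26 other settings. *Ly6a*, which encodes the surface protein Sca-1, was graded rather than carried by 1 line. It averaged 2998 ± 346 normalised counts in YEJH-FP1, 2142 ± 327, 2077 ± 234 and 2050 ± 161 in YEJH-FP2, YEJH-FP3 and YEJH-FP4, and 1488 ± 223 in YEJH-FP5 (SD, n = 3). It was higher in YEJH-FP1 (log2 difference 0.66 ± 0.10 SE, adjusted p = 0.00495) and lower in YEJH-FP5 (-0.64 ± 0.10 SE, adjusted p = 0.00432, edgeR). The means of the middle 3 lines lay closer together than the SD of any of them. Its neighbours *Ly6e* (adjusted p = 0.00627) and *Ly6c1* (adjusted p = 0.0129, edgeR) on chromosome 15 also differed among lines, but not in the same order. *Ly6e* was highest in YEJH-FP1, at 10830 to 11880 normalised counts against 8127 to 10280 elsewhere. *Ly6c1* stood at 93.7 to 110 in YEJH-FP1, below the 134 to 144.5 of YEJH-FP4. Both were lowest in YEJH-FP5. Reads of this family of similar genes may be divided between members by the counting.

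**Figure D3:**
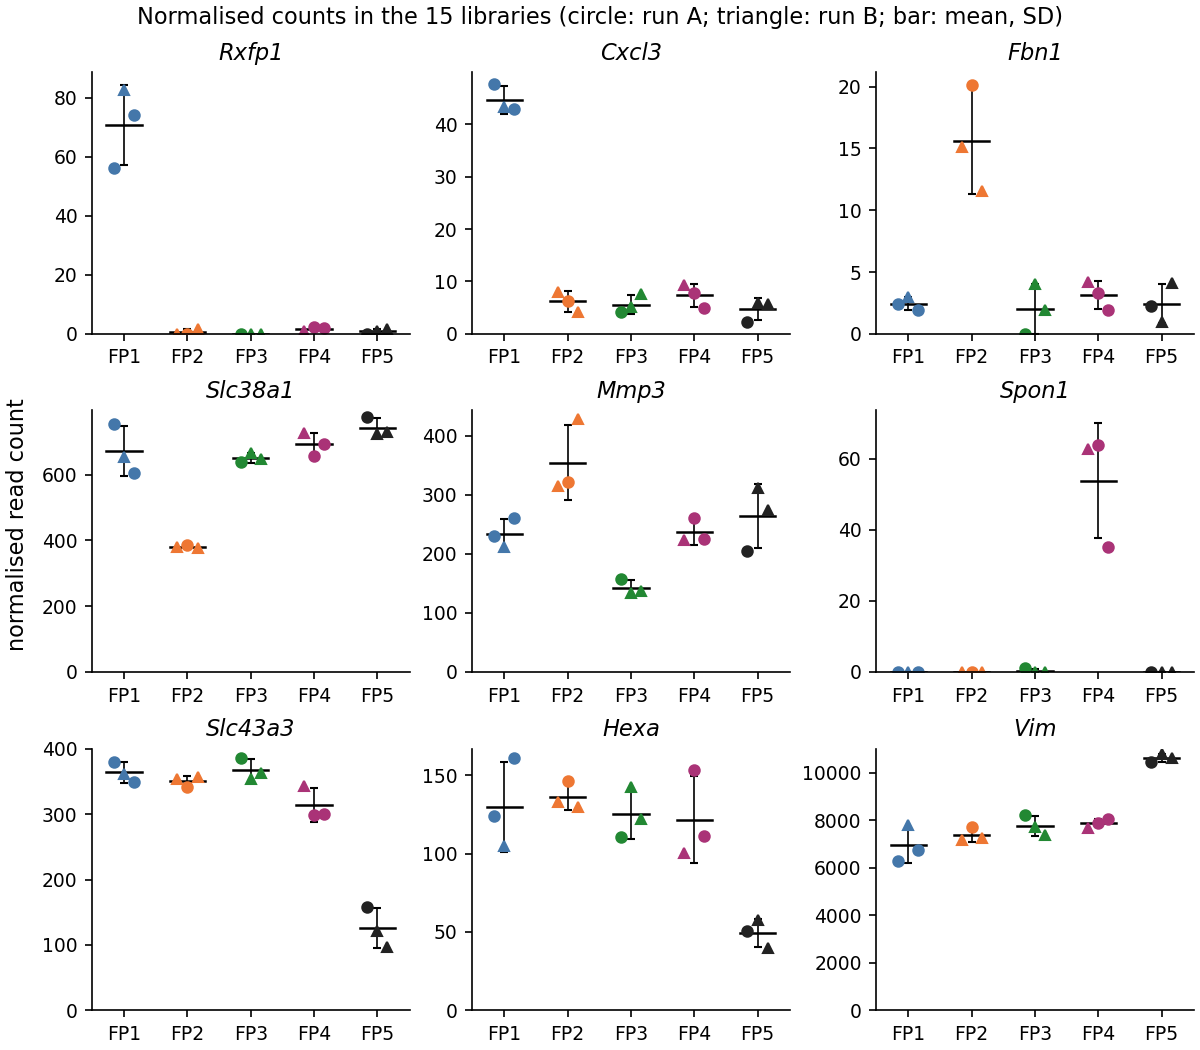
Normalised read counts (vertical axes, from 0) of 9 genes in the 3 libraries of each fat-pad line, with circles for run A, triangles for run B, and the mean and SD in black. *Rxfp1* and *Cxcl3* stand high in YEJH-FP1, *Fbn1* in YEJH-FP2 and *Spon1* in YEJH-FP4, while *Slc38a1* is low in YEJH-FP2, *Mmp3* in YEJH-FP3, and *Slc43a3* and *Hexa* in YEJH-FP5, where *Vim* is high.

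*Pglyrp1*, whose product binds bacterial peptidoglycan, stood at 53.5, 53.1 and 48 normalised counts in YEJH-FP2 and at 14.9 to 27.3 in the other 12 libraries, with a log2 difference of 1.39 ± 0.14 (SE, adjusted p = 0.000101, edgeR). *Fbn1*, which encodes the microfibril protein fibrillin-1, was low throughout, at 15.1, 20.2 and 11.6 normalised counts in YEJH-FP2 and at 0 to 4.18 elsewhere. Its log2 difference was 2.56 ± 0.36 (SE, adjusted p = 0.00256, edgeR), and the call among lines was lost in 6 of 26 other settings, among them without library 1 or 2 of YEJH-FP2. *Loxl4*, for a lysyl oxidase that crosslinks matrix, was named after its values were seen and stood at 42.4, 39.3 and 56.2 in YEJH-FP2 against 0 to 13.1 (log2 difference 3.64 ± 0.28 SE, adjusted p = 5.98e-06, edgeR). The Wnt ligand gene *Wnt10a* reached 33.3, 46.7 and 43 normalised counts in YEJH-FP2, above all other libraries, the highest of which was at 21.5 in YEJH-FP1. On the log2 scale the difference was 2.16 ± 0.26 (SE, adjusted p = 0.000564, edgeR), and the call among lines was lost without the run covariate. Of the 21 tested genes in a list of Wnt ligands, receptors and targets, *Wnt10a* alone differed among the 5 lines (4.76%, against 1.19% of all genes).

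The sodium-coupled glutamine transporter gene *Slc38a1* was lower in YEJH-FP2. It stood at 380, 385 and 376 normalised counts in YEJH-FP2, against 604 to 775 with a median of 680 in the other 12 libraries. The log2 difference was -0.85 ± 0.07 (SE, adjusted p = 5.98e-06, edgeR), and the call among lines was lost in run A alone and under no other setting. *Krt6a*, a keratin of hair follicle and activated epidermis, was at 95.8, 110 and 73.6 normalised counts in YEJH-FP2 and at 118 to 224 elsewhere (log2 difference -0.985 ± 0.15 SE, adjusted p = 0.00548, edgeR), and its call among lines was lost without library 1 or 3 of YEJH-FP2 and without the 5 libraries of repeat number 1. *Shank2*, a scaffold gene best known from synapses, was at 58.5, 69 and 59.5 in YEJH-FP2 and at 84.9 to 151 elsewhere (log2 difference -0.98 ± 0.12 SE, adjusted p = 0.000564, edgeR). The unconventional myosin gene *Myo5c* stood at 72.6, 70 and 77.7 against 37 to 61.8, with a log2 difference of 0.67 ± 0.11 (SE, adjusted p = 0.0075, edgeR). Its call among lines was lost in 10 of 26 other settings.

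YEJH-FP3 was the farthest line for 11 genes, of which 9 were lower and 2 higher there. Those named for this line by the size of their gap were lower. *Mmp3*, which encodes the matrix protease stromelysin-1, stood at 157, 134 and 137.5 normalised counts in YEJH-FP3 and at 206 to 428 in the other 12 libraries. The log2 difference was -0.92 ± 0.13 (SE, adjusted p = 0.0123, edgeR). *Mmp3* was also higher in YEJH-FP2 against the mean of its other 4 lines, YEJH-FP3 included, at 355 ± 63.7 (SD, n = 3; log2 difference 0.73 ± 0.11 SE, adjusted p = 0.00629, edgeR). *Chi3l1*, which encodes a secreted chitinase-like protein, was at 39.7, 29.3 and 24.65 in YEJH-FP3 and at 45.28 to 89.1 elsewhere (log2 difference -0.97 ± 0.16 SE, adjusted p = 0.0353, edgeR). *Arhgap31*, a gene for a regulator of the GTPases Rac and Cdc42, was at 107, 128 and 98.6 against 159 to 210 (log2 difference -0.75 ± 0.10 SE, adjusted p = 0.0123, edgeR). Its call among lines was lost without library 1 or 3 of YEJH-FP3. The single gene at least 2-fold higher in YEJH-FP3 was *Acan*, for the proteoglycan aggrecan, named after its values were seen. It stood at 278, 317 and 265.5 normalised counts in YEJH-FP3, at 80 to 145.5 in YEJH-FP1, YEJH-FP2 and YEJH-FP4, and at 24.8 to 36.9 in YEJH-FP5.

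In YEJH-FP4 the extracellular matrix gene *Spon1* (spondin-1, ENSMUSG00000038156, chromosome 7 from 113364999 to 113642610 in GRCm39) was expressed, and in the other lines it was at or near 0. Its normalised counts were 62.7, 63.9 and 35.1 in YEJH-FP4. Of the other 12 libraries 11 held no read and 1 library of YEJH-FP3 held 1. The ratio of 154 reads to this 1 read was 645-fold after scaling, with an exact 95% interval of 114 to 25650 that covers counting error only. On a scale common to all 45 libraries the parental line YEJH averaged 11.85 ± 0.231 normalised counts (SD, n = 3), the 5 YEJH lung lines between 0 and 1.22.

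*Dgkh*, for a diacylglycerol kinase, was at 85.7, 59.5 and 70.3 normalised counts in YEJH-FP4 and at 17.9 to 48.1 elsewhere (log2 difference 1.17 ± 0.20 SE, adjusted p = 0.0379, edgeR). It was among the least stable of the named calls, being lost in 14 of 26 other settings. *Vegfc*, the lymphatic vessel growth factor gene, stood at 256, 274 and 285 in YEJH-FP4 and at 163 to 217 elsewhere (log2 difference 0.51 ± 0.08 SE, adjusted p = 0.0121, edgeR), and its call among lines was lost in 6 of the 26.

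YEJH-FP5 carried the most genes at a lower level. *Slc43a3*, which encodes a transporter of purine nucleobases, was at 158, 122 and 96.6 normalised counts in YEJH-FP5 and at 298 to 386 in the other 12 libraries, with a median of 354. On the log2 scale the difference was -1.49 ± 0.11 (SE, adjusted p = 4.36e-06, edgeR). *Hexa*, the gene for the alpha subunit of the lysosomal enzyme hexosaminidase A, was at 50.3, 57.8 and 39.6 against 100 to 161 (log2 difference -1.36 ± 0.16 SE, adjusted p = 0.00032, edgeR). *Klhdc7a*, of the kelch domain family, was at 35.8, 57.8 and 51.2 against 97.6 to 136 (log2 difference -1.325 ± 0.11 SE, adjusted p = 9.99e-06, edgeR). Libraries of YEJH-FP5 below all others were a condition for naming these 3 genes.

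Higher in YEJH-FP5 were *Mmp9*, for the matrix protease gelatinase B, *U90926* and the teneurin gene *Tenm4*. *Mmp9* stood at 200.2, 168.5 and 149.5 normalised counts in YEJH-FP5 and at 64.5 to 123 elsewhere (log2 difference 0.83 ± 0.13 SE, adjusted p = 0.00267, edgeR). Its call among lines was lost in 5 of 26 other settings, which were run B alone, no run covariate and without library 1 or 2 of YEJH-FP5 or library 2 of YEJH-FP2. *U90926* stood at 622, 788 and 821 against 407 to 552 (log2 difference 0.62 ± 0.07 SE, adjusted p = 0.000318, edgeR). *Tenm4* was at 222.5, 266 and 244 against 134 to 198 (log2 difference 0.58 ± 0.09 SE, adjusted p = 0.00392, edgeR), and its call among lines was lost in 10 of 26 other settings, each single library of YEJH-FP5 included.

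Genes of mesenchymal cells were mixed in YEJH-FP5. Of 17 tested genes in a list of mesenchymal transition genes, 4 (23.5%, against 1.19% of all genes) differed among the 5 lines (*Sparc*, *Cdh2*, *Vim* and *Tgm2*). YEJH-FP5 was higher for 2 and lower for 1. The 21 gene lists were chosen with earlier results of these data known, and every list with a call among lines exceeded 1.19%. The shares given for lists here and below are therefore descriptions and not tests of enrichment. *Vim*, for the intermediate filament protein vimentin, stood at 10460, 10780 and 10640 normalised counts in YEJH-FP5 and at 6301 to 8202 in the other 12 libraries. The log2 difference was 0.51 ± 0.05 (SE, adjusted p = 6.91e-05, edgeR). *Cdh2*, for N-cadherin, was at 2314, 2023 and 2107 against 1507 to 1892 (log2 difference 0.37 ± 0.05 SE, adjusted p = 0.000888, edgeR), and its call among lines was lost without library 1 of YEJH-FP5. *Sparc*, for the collagen-binding protein osteonectin, went the other way, at 142, 171.5 and 182 in YEJH-FP5 against 203 to 381 (log2 difference -0.72 ± 0.09 SE, adjusted p = 0.000333, edgeR). *Sparc* was also higher in YEJH-FP2 against the mean of its other 4 lines (log2 difference 0.58 ± 0.08 SE, adjusted p = 0.00155, edgeR). The median log2 difference of the list in YEJH-FP5 was 0.04, against 0.00 over all genes tested.

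In a list of 29 tested collagen and matrix genes, 4 (13.8%, against 1.19% of all genes) differed among lines (*Sparc*, *Lama3*, *Fbn1* and *Col12a1*). *Col12a1*, for a collagen that decorates larger fibrils, stood at 2460, 2441 and 2685 normalised counts in YEJH-FP5 and at 1508 to 2115 elsewhere (log2 difference 0.51 ± 0.05 SE, adjusted p = 6.87e-05, edgeR), and it was lower in YEJH-FP3 (-0.32 ± 0.05 SE, adjusted p = 0.0447, edgeR). Among 26 matrix proteases and inhibitors, 4 (15.4%) differed (*Mmp9*, *Mmp3*, *Timp3* and *Serpine2*). *Timp3*, a tissue inhibitor of metalloproteinases, was lowest in YEJH-FP3 and YEJH-FP4 (adjusted p = 0.0364 among lines, edgeR), a call lost in 14 of 26 other settings.

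Of 21 tested luminal epithelial genes, 5 (23.8%) were lower in YEJH-FP5 against the other 4 and 0 were higher, where 0.961% of all genes were lower, and 18 of the 21 differences were negative. The 5 were *Ly6a*, *Ehf*, *Krt18*, *Cldn7* and *Cldn3*. *Ehf*, an epithelial transcription factor gene, was at 21.25, 13.96 and 20.6 normalised counts in YEJH-FP5 and at 25.05 to 50.4 elsewhere (log2 difference -1.14 ± 0.20 SE, adjusted p = 0.00811, edgeR). The differences of the junction genes *Cldn7* (-0.34 ± 0.07 SE, adjusted p = 0.0324) and *Cldn3* (-0.24 ± 0.05 SE, adjusted p = 0.0345) and of the keratin gene *Krt18* (-0.22 ± 0.05 SE, adjusted p = 0.0189, all by edgeR) were small. The median log2 difference of the list was -0.13 in YEJH-FP5 and between 0.02 and 0.07 in the other 4 lines. Of these 5, *Ly6a* and *Cldn7* were also called among the 5 lines, and that of *Cldn7* was lost in 12 of the 26 settings other than run A alone. Without library 1, 2 or 3 of YEJH-FP5 the count was 2, 1 and 1, and it was 3 without library 2 of YEJH-FP1, library 1 or 3 of YEJH-FP2 or library 3 of YEJH-FP3. The summed level of the 8 mammary epithelial markers averaged 5764 CPM in YEJH-FP5 and 6372 to 6880 CPM in the other lines, and its part in these differences was not tested. Among 14 basal and squamous genes, *Krt6a* and *Krt14* (14.3%, against 1.19% of all genes) differed among lines. *Krt14*, a basal keratin gene, averaged 6967 ± 373 normalised counts in YEJH-FP5 and 6391 ± 165 in YEJH-FP3, and 5253 ± 179 to 5877 ± 590 in the other 3 lines (SD, n = 3). Its call was lost in 6 of the 26, among them without library 2 or 3 of YEJH-FP5 and without library 1 or 3 of YEJH-FP2.

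Of 26 tested genes in a list of p53 targets and cell cycle brakes, 7 (26.9%) were lower in YEJH-FP5, against 0.961% of all genes, and 0 were higher, 21 of the 26 differences were negative, and the median log2 difference was -0.20, against 0.00 over all genes. The 7 were *Pmaip1*, *Trp53inp1*, *Eda2r*, *Bax*, *Sesn2*, *Ccng1* and *Mdm2*. *Pmaip1*, for the cell death protein Noxa, was the one called among the 5 lines. It was at 79.4, 74.8 and 71 normalised counts in YEJH-FP5, at 76.4 to 93.8 in YEJH-FP2 and at 118 to 150 in the other 3 lines, so that 2 lines shared the low level. *Trp53inp1*, which promotes p53 activity and autophagy, was at 420.5, 449.7 and 468 against 483 to 759 (log2 difference -0.59 ± 0.10 SE, adjusted p = 0.00515, edgeR). *Ccng1*, for cyclin G1, was at 6409, 6377 and 5937 against 5907 to 9323, an overlap made by library 1 of YEJH-FP1 (log2 difference -0.42 ± 0.09 SE, adjusted p = 0.0306, edgeR). *Mdm2*, for the ligase that degrades p53, was at 2602, 2798 and 2643 against 2756 to 3398, again overlapping at library 1 of YEJH-FP1 (log2 difference -0.23 ± 0.05 SE, adjusted p = 0.0494, edgeR).

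*Trp53* itself averaged 1314 normalised counts in YEJH-FP5 and between 1220 and 1322 in the other lines (adjusted p = 0.9995 among lines, edgeR), and *Cdkn1a*, a cell cycle inhibitor and classic p53 target, 721.5 against 789 to 873 (adjusted p = 0.938, edgeR). Without library 1, 2 or 3 of YEJH-FP5 the count of 7 fell to 1, 1 and 2, and it was 4 without library 2 of YEJH-FP1, of YEJH-FP3 or of YEJH-FP4. It was 6 without the 5 libraries of repeat number 1, and was 3 without library 1 of YEJH-FP4 and without the run covariate. It was 0 in run A alone, which holds 1 library of YEJH-FP5, and 7 in run B alone. In bulk RNA, fewer cells with a transcript and less transcript per cell cannot be told apart.

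Several genes took more than 2 levels among the lines. *Ddr2*, a collagen receptor kinase gene, averaged 555 ± 90.8 normalised counts in YEJH-FP2, 381 ± 86.8 in YEJH-FP1, 194 ± 22.3 in YEJH-FP4, 191 ± 33.2 in YEJH-FP3 and 89.3 ± 17.5 in YEJH-FP5 (SD, n = 3, adjusted p = 2.94e-06 among lines, edgeR). YEJH-FP3 and YEJH-FP4 did not differ beyond their spread, and the ranges of libraries of YEJH-FP1, YEJH-FP2 and YEJH-FP5 did not overlap with any other line. *Gpa33*, a surface antigen gene of gut epithelium and named after its values were seen, had a like order, from 355 ± 41.95 in YEJH-FP1 and 322.5 ± 19.5 in YEJH-FP2 to YEJH-FP3 at 144 ± 17.5, YEJH-FP4 at 121 ± 25.5 and YEJH-FP5 at 42.3 ± 16.75 (SD, n = 3, adjusted p = 2.94e-06, edgeR). On the scale common to all 45 libraries the parental line YEJH averaged 8.78 ± 7.17 for *Ddr2* and 5.87 ± 1.31 for *Gpa33*, below every fat-pad line.

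The imprinted genes *Sgce* and *Peg10*, which are expressed from the paternal copy and start beside each other on opposite strands of chromosome 6, took the same order of lines. *Gng11* lies nearby (chromosome 6 from 4003904 to 4760517 in GRCm39 for the 3 genes). *Sgce*, for a sarcoglycan, averaged 52.4 ± 5.13 normalised counts in YEJH-FP2, 31.05 ± 2.71 in YEJH-FP4, 23.01 ± 1.385 in YEJH-FP1, 18.8 ± 5.49 in YEJH-FP3 and 15.4 ± 3.155 in YEJH-FP5 (SD, n = 3, adjusted p = 0.0006105, edgeR). *Peg10*, a gene derived from a retrotransposon, averaged 46.04 ± 4.53, 35.45 ± 4.54, 22.6 ± 4.89, 19.1 ± 3.92 and 10.99 ± 5.47 in the same order of lines (adjusted p = 0.00429, edgeR). *Gng11*, for a G protein subunit, averaged 131 ± 21.99 in YEJH-FP2 and 127 ± 2.63 in YEJH-FP4, and 45.99 ± 6.37 to 75.6 ± 7.22 in the other 3 lines (adjusted p = 5.51e-05, edgeR). For all 3 genes the highest lines were YEJH-FP2 and YEJH-FP4 and the lowest was YEJH-FP5. *Peg3*, an imprinted gene on chromosome 7, averaged 5.67 normalised counts in YEJH-FP2 and 17.1 in YEJH-FP5 and did not pass (adjusted p = 0.127, edgeR). In all, 2 of 13 tested imprinted genes differed among lines (15.4%, against 1.19% of all genes), and 3 (*Peg10*, *Sgce* and *Igf2r*) were lower in YEJH-FP5, where 0.961% of all genes were.

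**Figure D4:**
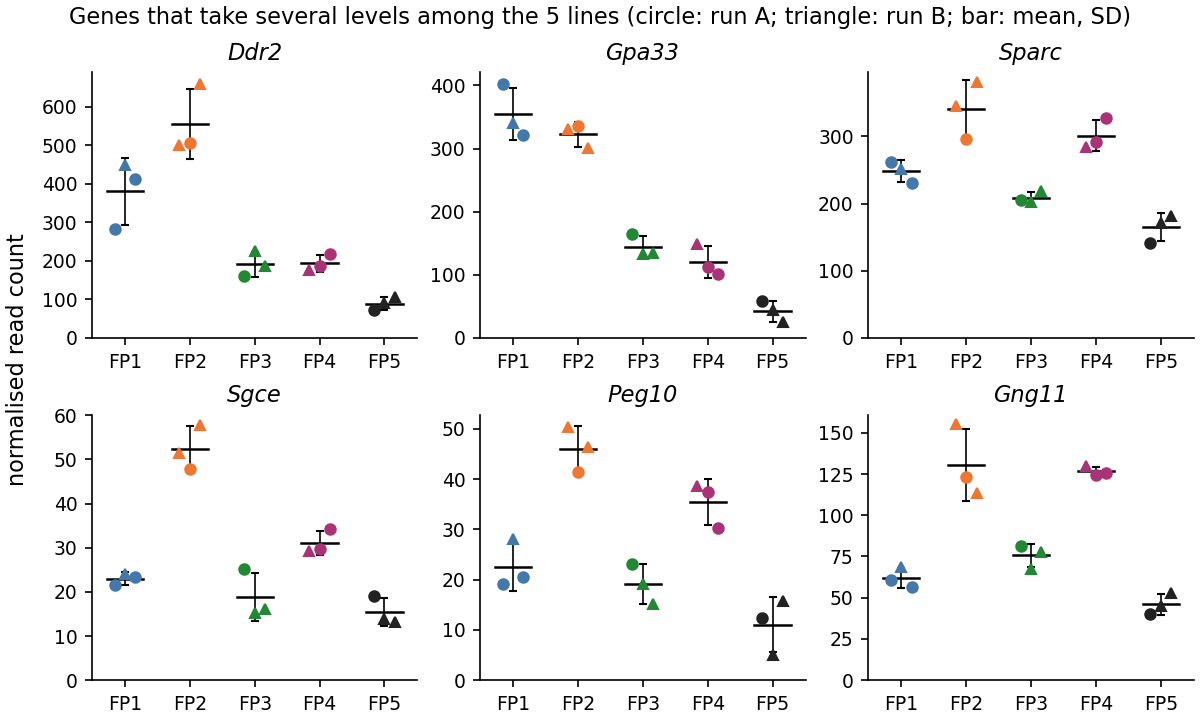
Normalised read counts (vertical axes, from 0) of 6 genes that take several levels among the 5 fat-pad lines, with circles for run A, triangles for run B, and the mean and SD in black. *Sgce*, *Peg10* and *Gng11* are highest in YEJH-FP2 and YEJH-FP4 and lowest in YEJH-FP5, whereas *Ddr2* and *Gpa33* are highest in YEJH-FP1 and YEJH-FP2.

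Among 33 tested interferon response genes only *Oasl2* passed among the 5 lines (3.03%, against 1.19% of all genes; adjusted p = 0.0104, edgeR), at a mean of 53.65, 49.8 and 47.03 normalised counts in YEJH-FP2, YEJH-FP3 and YEJH-FP4 and of 29.1 and 31.96 in YEJH-FP1 and YEJH-FP5. The median range between the highest and the lowest line was 0.54 on the log2 scale over this list and 0.17 over all genes tested. The list's median log2 difference was 0.22 in YEJH-FP2, where 30 of 33 differences were positive and 1, that of *Irgm1*, passed, and -0.19 in YEJH-FP5. Among 19 genes of class I antigen presentation, *Psmb8*, an immunoproteasome subunit gene (adjusted p = 0.0112), and *Nlrc5*, the activator of class I genes (adjusted p = 0.0129, edgeR), passed (10.5%). *Psmb8* averaged 47.4 normalised counts in YEJH-FP5 and 50.45 in YEJH-FP1, against 72.4 to 87.2 in the other 3 lines, and *Nlrc5* 20.4 in YEJH-FP4 and 23.3 in YEJH-FP5, against 39.25 to 47.1. Without the 5 libraries of repeat number 1 the calls of *Oasl2*, *Psmb8* and *Nlrc5* were lost, as were those of *Oasl2* and *Psmb8* in run B alone and that of *Nlrc5* without library 3 of YEJH-FP5. Among 30 chemokines and cytokines, *Cxcl3*, *Cxcl5*, *Il1a* and *Vegfc* passed (13.3%). *Il1a*, for the alarm cytokine interleukin-1 alpha, was higher in YEJH-FP5 (log2 difference 0.41 ± 0.07 SE, adjusted p = 0.0077), as was the monocyte chemokine gene *Ccl2* (1.15 ± 0.22 SE, adjusted p = 0.0131, edgeR). *Notch4* was the 1 gene of 11 of the Notch pathway (9.09%), *Ddit4* the 1 of 30 of hypoxia and glycolysis (3.33%), and *Ddr2*, known as a collagen receptor, the 1 of 25 in the list named amino acid response. *Ddit4* was highest in YEJH-FP3, at a mean of 892 normalised counts against 624 to 755 in the other lines. The call of *Ddit4* was lost in 15 of the 26 settings and that of *Notch4* in run B alone.

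No gene passed among 35 proliferation genes, 32 of cholesterol and fatty acid synthesis, 29 of glutathione and NRF2 targets, 22 integrins and adhesion genes, 11 ErbB receptors and ligands and 27 enzymes of uridine and pyrimidine metabolism by edgeR, and 1 Hox gene was expressed enough to be tested and did not pass. Since 1.19% of all genes were called, 0 calls in lists this short do not set them apart from other genes. At an unadjusted p under 0.05 the counts were 0, 1, 5, 4, 1 and 0 in the same order of lists, and among all of these DESeq2 called 1 integrin or adhesion gene and limma 0. With repeat number added to the edgeR model, 2 integrin or adhesion, 2 NRF2, 1 ErbB and 1 cholesterol genes were called. The proliferation genes had a median range of 0.08 on the log2 scale, below the 0.17 of all genes. *Egfr* ranged from a mean of 1379 to 1607 normalised counts (adjusted p = 0.174, edgeR). *Upp1*, which encodes the uridine phosphorylase that the study follows, averaged 497 ± 18.15, 503 ± 17.8, 451 ± 23.02, 484 ± 40.4 and 464 ± 25.96 normalised counts in YEJH-FP1 to YEJH-FP5 (SD, n = 3). The order of its levels did not exceed the spread between libraries (range 0.15 on the log2 scale, adjusted p = 0.9995, edgeR). *Upp2* averaged 10.02 to 12.98 normalised counts (adjusted p = 0.9995, edgeR).

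Genes of chromosome 15 were shifted together in YEJH-FP4 and YEJH-FP5. Over 443 genes of this chromosome with a mean of at least 2 CPM, the median log2 deviation from the mean of the 5 lines was 0.0589 in YEJH-FP4 and -0.0609 in YEJH-FP5, and between -0.00422 and 0.00768 in the other 3 lines. In YEJH-FP4 83.1% of these genes lay above 0, against 52.04% of all genes, and in YEJH-FP5 17.8% did, against 51.2% of all genes. The shift was present in every library of both lines, between 0.0429 and 0.0715 in YEJH-FP4 and between -0.0652 and -0.05535 in YEJH-FP5. Of 8 windows along the chromosome, all 8 had a median above 0 in YEJH-FP4 and below 0 in YEJH-FP5. In the window from 60 to 75 Mb, with 31 genes, the median of YEJH-FP4 was only 0.0046 and that of YEJH-FP1 was 0.134, farther from 0 than any other line median in the 8 windows. The medians were 0.05125 and -0.0592 in run A and 0.0637 and -0.0626 in run B. Without the genes called among lines they were 0.0589 and -0.06065. On chromosome 18, over 285 genes, YEJH-FP4 had a median of 0.0506, with 80% of genes above 0, and YEJH-FP1 one of -0.0307, in which its library 1 stood apart at -0.0897. In run A the median of YEJH-FP4 was 0.0516 and that of YEJH-FP1 -0.0457, and in run B they were 0.0253 and -0.0026. The range of medians between lines was 0.12 for chromosome 15 and 0.0813 for chromosome 18, and between 0.0104 and 0.0436 for the other 18 chromosomes. A chromosome median is given as a description, with no test.

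**Figure D5:**
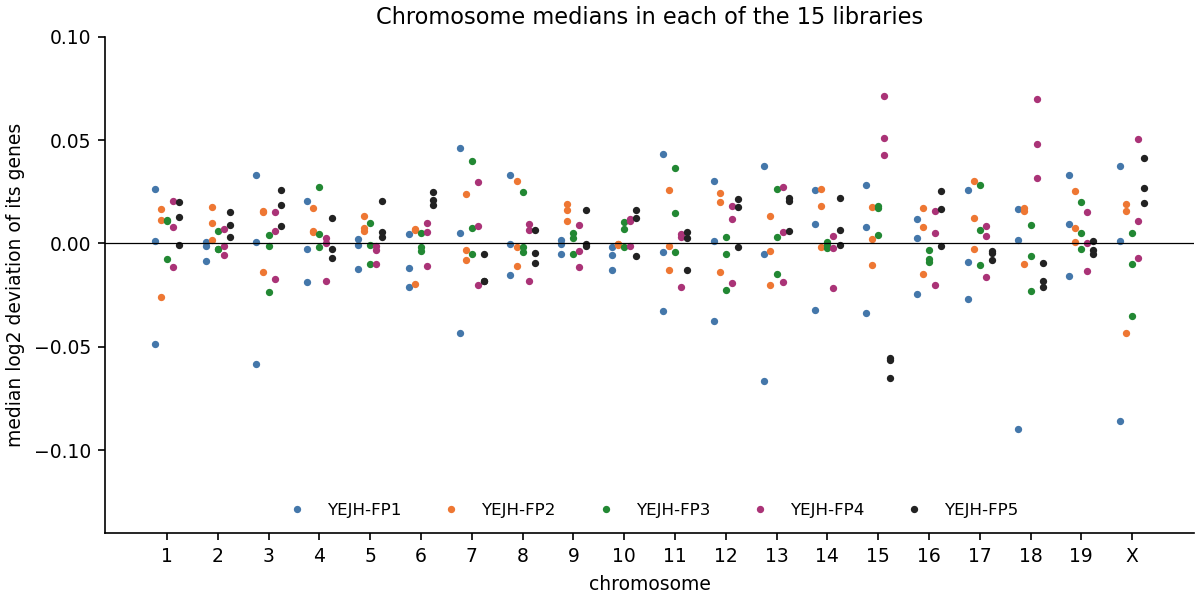
Median log2 deviation (vertical axis) of the genes of each chromosome (horizontal axis) in each of the 15 libraries, coloured by line. On chromosome 15 the 3 libraries of YEJH-FP4 lie at 0.0429 to 0.0715 and the 3 of YEJH-FP5 at -0.0652 to -0.05535, while the lowest points on chromosomes 18 and X belong to library 1 of YEJH-FP1.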

How the data were processed

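Polyadenylated RNA of the 15 libraries was made into libraries with a kit that does not mark strand and sequenced on an Illumina NextSeq500. The authors deposited raw read counts per Ensembl gene. Their processing notes name FastQC, HISAT2, SAMtools 1.2 and HTSeq and the human build GRCh38, although the gene identifiers are of mouse; gene positions here come from the GRCm39 annotation, in which 50764 of 54838 genes (92.6%) were found. Between 31.6 and 36% of reads fell on no gene and were left out. Counts were tested with edgeR 4.0.16 (R 4.3.3, TMM factors, genes filtered by line, quasi-likelihood F test, line and library run as terms, 9 residual degrees of freedom), for any difference among lines and for each line against the mean of the other 4. Adjusted p-values are Benjamini-Hochberg over 13429 genes. Normalised counts are read counts divided by the effective library size (total times TMM factor) and multiplied by the mean effective size, 14268040 reads. Named were, per line and direction, up to 3 protein-coding genes with the largest gap to the nearest line among genes carried by 1 line with all 3 libraries beyond the other 12 and a mean of at least 50 normalised counts, up to 3 members of each of 21 gene lists with the smallest p, *Upp1* and *Upp2*, and neighbours of named genes. The members and lists were chosen with earlier results of these data known. Other genes (*Cxcl1*, *Cxcl2*, *Acan*, *Loxl4*, *Gpa33*, *Ccl2*, *Acta1*, *Krt18*, *Cldn3*, *Bax*, *Ccng1*, *Mdm2*, *Trp53*, *Cdkn1a*, *Igf2r*) were named after their values were seen. In data simulated from these libraries, the test among lines called 83.58% of genes changed 1.5-fold, 94.03% changed 2-fold and 100% changed 4-fold. It made 12 false calls among the unchanged genes. Changed genes were drawn from those with a mean of at least 50 counts, and no effect of repeat number was simulated. The shares therefore do not cover genes with fewer counts or the repeat effect seen in the real libraries. Alternatives were DESeq2 1.42.0, limma 3.58.1 with voom, other scalings and filters, each run alone, and leaving out each library. Intervals cover counting error only.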

Additional observations from a re-analysis of the deposited data

Results flagged for a closer look

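Among 43 sets of 5 line values examined (medians of gene lists and of chromosomes, *Upp1* and reads on genes), 4 had 1 line farther from its nearest neighbour than Dixon's 95% limit allows, where chance would give about 2.15, or 1 in 20. The luminal epithelial list was low in YEJH-FP5 (median -0.11, gap over range 0.768). The chemokine and cytokine list was low in YEJH-FP3 (median -0.11, gap over range 0.714). The list of cholesterol and fatty acid synthesis was high in YEJH-FP3 (median 0.15, gap over range 0.774), with none of its 32 tested genes called among the lines by edgeR, where 1.19% of all genes were. The genes of chromosome 11 were high in YEJH-FP3 (median 0.0138, gap over range 0.78). Medians are log2 deviations from the mean of the 5 lines.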

How the results depend on the processing

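The number of genes that differed among the 5 lines, 160 by edgeR, was 248 with DESeq2 (155 shared), 596 without the filter on low counts, 249 with the dispersion taken from all 45 libraries (148 shared) and 0 in run A alone, where 3 lines have 1 library and 210 genes had an unadjusted p under 0.05. With 1 library left out it was between 103 and 225. The number at least 2-fold apart, 64, was 147 without the filter and 0 in run A, and 48 to 69 with 1 library left out. For single lines against the other 4 with a 2-fold difference, the values without the filter were 14, 33, 14, 11 and 57 for YEJH-FP1 to YEJH-FP5, while run A alone gave 3, 0, 0, 0 and 0. YEJH-FP1 had 13 in run B. YEJH-FP3 had 2 with limma, 2 in run B, 3 with the dispersion from all 45 libraries and 5 without the libraries of repeat number 1. YEJH-FP4 had 2 without the run covariate and 8 with the dispersion from all 45 libraries. With 1 library left out the ranges were 6 to 9, 10 to 17, 1 to 2, 2 to 6 and 22 to 36 for YEJH-FP1 to YEJH-FP5. Repeat numbers were not taken to pair the libraries, since the labels give them no shared origin and not every same-number pair of deviations correlated over 0.1 (21 of 30 did, mean 0.16, lowest -0.121). Libraries of other numbers and lines gave 7 of 60 and a mean of -0.08, so libraries of 1 number did deviate together in part. With a replicate block the count among lines was 355, which held all 160, and YEJH-FP3 had 2 and YEJH-FP4 8. Under the block 9 luminal, 9 matrix, 7 protease, 7 p53, 3 Notch and 3 hypoxia genes were called among lines, and 2 each of integrin, interferon, Wnt, amino acid and NRF2 and 1 each of ErbB and cholesterol genes; 11 p53 targets and 8 luminal genes were lower in YEJH-FP5. The p53 count in YEJH-FP5, 7, was 3 without the covariate and 0 in run A, and 1 to 7 with 1 library left out. The luminal count, 5, was 9 without the filter, 8 in run B and 0 in run A, with a range of 1 to 7 with 1 library left out. Outside run A, 22 of the 42 called named genes passed under all 26 other settings, 7 were lost in 1 or 2 and 13 in 3 or more, most often *Ddit4* (15), *Dgkh* and *Timp3* (14) and *Cldn7* (12). None of the 42 reversed. Of the 37 named genes that were not called, *Nrg2* turned to 0.072 in run B, *Nme2* to -0.070 without the covariate and *Upp2* to 0.16 in run A. The cause of these changes was not tested.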

Other observations

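*Nme2*, for a nucleoside diphosphate kinase, stood at 1783 to 2219 normalised counts in the 7 libraries of run A and at 619.9 to 800.3 in the 8 of run B. Processed pseudogenes took 0.929 to 0.975% of reads in run A and 0.523 to 0.544% in run B. Run as a term was called for 1596 of 13429 genes and the repeat number for 1866, both more than the 160 called for line. For the 70 genes carried by 1 fat-pad line, the lung line of the same number was the most extreme of the 5 lung lines in the same direction for 25 genes (35.7%), against 23.9% of all genes tested. Of the 70 genes 43 belonged to YEJH-FP5. The part of this mix of lines in the difference between the shares was not tested. The sources used here do not say whether equal numbers stand for the same mouse.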
